A study of Mus musculus with 2 samples.

Results

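The proteasome genes described here are the mouse genes with symbols Psma, Psmb, Psmc, Psmd, Psme, Psmf or Psmg followed by a number, plus Pomp, that had at least 50 unique molecular identifiers (UMIs, each standing for 1 captured transcript) over both libraries of a single-cell experiment. Of 32285 genes in the feature tables, 20191 had a UMI, 51 had such a symbol and 49 passed the minimum. Psma8, a core subunit known from testis, with 4 UMIs, and Psmb11, the catalytic subunit of the thymus proteasome, with 6 UMIs, fell below it. The symbol rule also took in Psmc3ip (281 UMIs), whose product is a meiotic recombination cofactor and no part of the proteasome. It was left out of all sums and counts below, which cover the other 48 genes.

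The study measured single-cell RNA with 10x Genomics droplets in immune cells from the small intestine of Il23r-eGFP mice, in which green fluorescence reports expression of the IL-23 receptor. Both libraries carry this reporter allele and were sorted as live eGFP-positive leukocytes, so cells without the reporter are outside the experiment. The unstimulated library held 10790 kept cells and the IL-23 library, given recombinant mouse IL-23 for 2 hours after sorting, held 9251. Kept cells had 500 or more genes, and mitochondrial UMIs made up 10% or less of their total. With 1 library per group there is no replicate and no test of any difference, and the effect of IL-23 cannot be told apart from a difference between the libraries. The sources used here do not give the number, age or sex of the mice, nor say if the unstimulated cells spent the same time in culture.

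The proteasome is the protease that degrades proteins tagged with ubiquitin. Its barrel-shaped core is built from rings of alpha (Psma) and beta (Psmb) subunits, and its cap, the regulatory particle, holds a ring of ATPases (Psmc) that unfold the substrate and further subunits (Psmd) that bind and remove ubiquitin. In immune cells, and in other cells under interferon, Psmb8, Psmb9 and Psmb10 can replace the catalytic subunits Psmb5, Psmb6 and Psmb7, which gives the immunoproteasome and alters the peptides offered on MHC class I.

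Levels are given in CPM, the summed UMIs of a gene in a class of cells per 1000000 UMIs of all genes there. Brackets after a level or a ratio hold exact 95% intervals, which cover counting error only and not the variation between animals or libraries. UMIs are not divided by transcript length, so levels of different genes are not ranked against each other. Cells without a UMI of Cd3d, Cd3e or Cd3g were called Ncr1 cells when they had a UMI of Ncr1 and none of Ccr6 (1052 unstimulated, 1258 with IL-23), and Ccr6 cells in the reverse case (1535 and 1464). Cells with a UMI of Cd3e were called Cd3e cells (495 and 430). Most remaining cells without the CD3 chains had neither marker (7440 and 5802), and 48 and 59 cells with both were kept apart.

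The libraries held 58443284 and 62291905 UMIs, and the median kept cell had 4928 UMIs in the unstimulated and 6087 in the IL-23 library. All 9 genes of a list for type 3 innate lymphoid cells (ILC3s) were detected in each class, Il23r at 126 to 218 CPM. Of 10 T cell markers, Ncr1 cells lacked the 3 CD3 chains by definition but summed to 687 CPM unstimulated and 520.4 with IL-23, most of it Trbc1 and Trbc2, against 3528 and 3067 CPM in Cd3e cells. Markers of NCR+ ILC3s summed to 1642 and 1512 CPM in Ncr1 cells, 748 and 744 in Ccr6 cells, and 695 and 760.0 in Cd3e cells. Those of CCR6+ LTi-like cells summed to 2012 and 1896 CPM in Ccr6 cells, 184 and 177 in Ncr1 cells, and 377 and 342 in Cd3e cells. Each list holds the gene that defines its class, Ncr1 (220.1 and 188 CPM in Ncr1 cells) or Ccr6 (278 and 236 CPM in Ccr6 cells). Natural killer markers summed to 53.8 and 99.4 CPM in Ncr1 cells, with Klra8 at 0 in both libraries, and their part in the results was not tested. B and plasma cell markers summed to 1839 CPM in unstimulated Ncr1 cells and 1731 CPM in IL-23 Ccr6 cells, against 7.97 and 34.6 in the same classes of the other library. Cells with at least 20 such UMIs numbered 1 and 0 among unstimulated and IL-23 Ncr1 cells, and 2 and 1 among Ccr6 cells. Without them the summed proteasome log2 ratio given below was -0.10 in Ncr1 and -0.09 in Ccr6 cells. Macrophage and epithelial lists summed to at most 13.4 CPM. The libraries shared 25 barcodes among kept cells, 0.232% and 0.27% of them.

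Il22, a cytokine gene known to respond to IL-23, took 0.472% of all UMIs of Ncr1 cells in the unstimulated library and 3% in the IL-23 library. In Ccr6 cells these shares were 0.748% and 2.55%, and in Cd3e cells 0.154% and 1.16%. Mitochondrial genes went from 2.63% to 3.2% in Ncr1 cells. CPM is a share of a fixed total, and the median log2 ratio of all measured genes was -0.12 in Ncr1 cells, -0.11 in Ccr6 cells and -0.07 in Cd3e cells. All ratios below are read against these shifts.

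Promoter sequences are shown for the members that hold the core of the antioxidant response element (TGACNNNGC on either strand), the element bound by Nfe2l1, since that regulator differed most among the listed regulators, and for Psmc1, the member that differed most between the libraries in Ncr1 and Cd3e cells. RefSeq promoter windows (250 bases before to 50 after a start, GRCm38.p6) were at hand for 41 of the 48 genes. The 250 bases before each start are printed 5′ to 3′ on the gene's strand, cut to the stretch that touches no exon in GENCODE vM21. Capitals mark matches to the antioxidant response element core, to the interferon-stimulated response element core (Psmd9, positions 92 to 101) and to the NF-Y box CCAAT (Psmc1).
Psmb5 (chr14:54618023-54618245, minus strand): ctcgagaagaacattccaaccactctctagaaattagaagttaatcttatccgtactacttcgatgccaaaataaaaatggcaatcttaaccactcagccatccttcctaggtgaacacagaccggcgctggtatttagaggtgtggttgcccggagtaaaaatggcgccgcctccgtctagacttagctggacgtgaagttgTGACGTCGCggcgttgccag
Psmb6 (chr11:70525107-70525356, plus strand): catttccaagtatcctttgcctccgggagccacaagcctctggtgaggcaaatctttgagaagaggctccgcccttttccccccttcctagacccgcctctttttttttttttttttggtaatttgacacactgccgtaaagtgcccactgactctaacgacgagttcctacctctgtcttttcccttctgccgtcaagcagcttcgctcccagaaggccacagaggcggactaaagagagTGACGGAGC
Psmc6 (chr14:45329574-45329787, plus strand): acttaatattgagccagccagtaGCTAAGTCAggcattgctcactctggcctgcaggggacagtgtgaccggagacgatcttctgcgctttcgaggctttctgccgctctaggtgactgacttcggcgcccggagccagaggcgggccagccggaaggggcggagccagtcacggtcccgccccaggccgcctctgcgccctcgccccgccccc
Psmd12 (chr11:107479278-107479483, plus strand): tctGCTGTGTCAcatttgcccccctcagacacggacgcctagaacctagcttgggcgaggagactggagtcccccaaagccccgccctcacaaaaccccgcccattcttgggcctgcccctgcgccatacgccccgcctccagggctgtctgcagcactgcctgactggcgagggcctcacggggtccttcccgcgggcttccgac
Psmd9 (chr5:123227940-123228189, plus strand): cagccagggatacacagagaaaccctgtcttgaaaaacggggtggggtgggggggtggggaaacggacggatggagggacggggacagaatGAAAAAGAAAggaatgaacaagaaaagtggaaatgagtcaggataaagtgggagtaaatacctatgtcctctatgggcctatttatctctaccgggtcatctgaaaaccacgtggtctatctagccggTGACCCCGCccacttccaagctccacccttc
Psmc1 (chr12:100109952-100110153, plus strand): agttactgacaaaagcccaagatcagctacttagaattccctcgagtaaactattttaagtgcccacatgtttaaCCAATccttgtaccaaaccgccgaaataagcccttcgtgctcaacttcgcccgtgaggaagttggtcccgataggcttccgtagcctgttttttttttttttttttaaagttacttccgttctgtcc

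The antioxidant response element core was found in 6 of the 41 promoter windows (14.6%): Psmb5, Psmb6, Psmc6, Psmd12, Psmd9 and Psme4. The same letters occur in 14.0% of the windows of all 27025 genes with an entry, so members held it about as often as genes at large. The Psme4 match lies outside the stretch of 201 bases before its start that touches no exon, and is not printed. The interferon-stimulated response element core, which is GAAA, any 2 bases and GAAA, was in 5 members (12.2%, against 3.99% of all genes): Psmb3, Psmd4, Psmd9, Psme1 and Psmg4. Of the 5 classical interferon-responsive members (Psmb8, Psmb9, Psmb10, Psme1, Psme2), only Psme1 held it in its window. That match lies outside the stretch of 111 bases before the Psme1 start that touches no exon. For Psmb8 and Psmb9, 0 of the 250 bases before the start lie outside annotated exons. Their windows may thus miss the promoter, which limits what a found or absent match of any motif means for these genes. The STAT site core TTCNNNGAA, which is its own reverse complement, was in 3 members (Psmb8, Psmd2 and Psmg1, 7.32%, against 9.55%), and CCAAT was in 13 (31.7%, against 41.1%). A match is a run of letters, not a shown binding site.

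Summed over the 48 genes, proteasome transcripts made up slightly less of the RNA in the IL-23 library in all 3 classes, by about as much as the median gene. The sum was 6219.7 CPM unstimulated and 5833 CPM with IL-23 in Ncr1 cells, a log2 ratio of -0.09 (-0.11 to -0.07). It was 6874 and 6432 CPM in Ccr6 cells, a log2 ratio of -0.10 (-0.11 to -0.08). It was 6721 and 6369.6 CPM in Cd3e cells, a log2 ratio of -0.08 (-0.10 to -0.05). The innate cells with neither marker, which share no cell with these classes, gave 6475 and 6133 CPM and a log2 ratio of -0.08. With Il22 and mitochondrial genes taken out of the total, the log2 ratio was -0.05 in Ncr1 and -0.06 in Ccr6 cells. Under median-of-ratios scaling, which sets the median gene to 0, the sums differed by 0.03, 0.02 and -0.01 on the log2 scale in Ncr1, Ccr6 and Cd3e cells, so the sign in the 2 innate classes depends on the scaling.

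Every cell of the 3 classes held at least 1 proteasome UMI. The median cell held 38 proteasome UMIs in unstimulated and 42 in IL-23 Ncr1 cells, 35 and 42 in Ccr6 cells and 43 and 48 in Cd3e cells. As a share of each cell's UMIs the medians were 0.614% and 0.575% in Ncr1 cells, 0.676% and 0.636% in Ccr6 cells, and 0.66% and 0.632% in Cd3e cells. The middle 50% of cells overlapped widely, from 0.525% to 0.721% and from 0.485% to 0.674% in Ncr1 cells.

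A member counted as measured in a class with at least 20 UMIs over both libraries and at least 10 CPM in 1 or both. This held for 46 members in Ncr1 and Ccr6 cells (not Psmg1 and Psme2b) and for 47 in Cd3e cells (not Psmg1). The members sat closer together than genes at large. The middle 50% of measured members spanned log2 ratios of -0.14 to -0.00 in Ncr1 cells, against -0.30 to 0.05 for all 6890 measured genes. In Ccr6 cells the spans were -0.18 to 0.00 and -0.27 to 0.03, and in Cd3e cells -0.16 to 0.04 and -0.27 to 0.13. The members were also counted more deeply, with a median level of 114, 123 and 124 CPM in the 3 classes against 40.7, 41.2 and 39.8 for all measured genes, so their counting error was smaller.

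**Figure D1:**
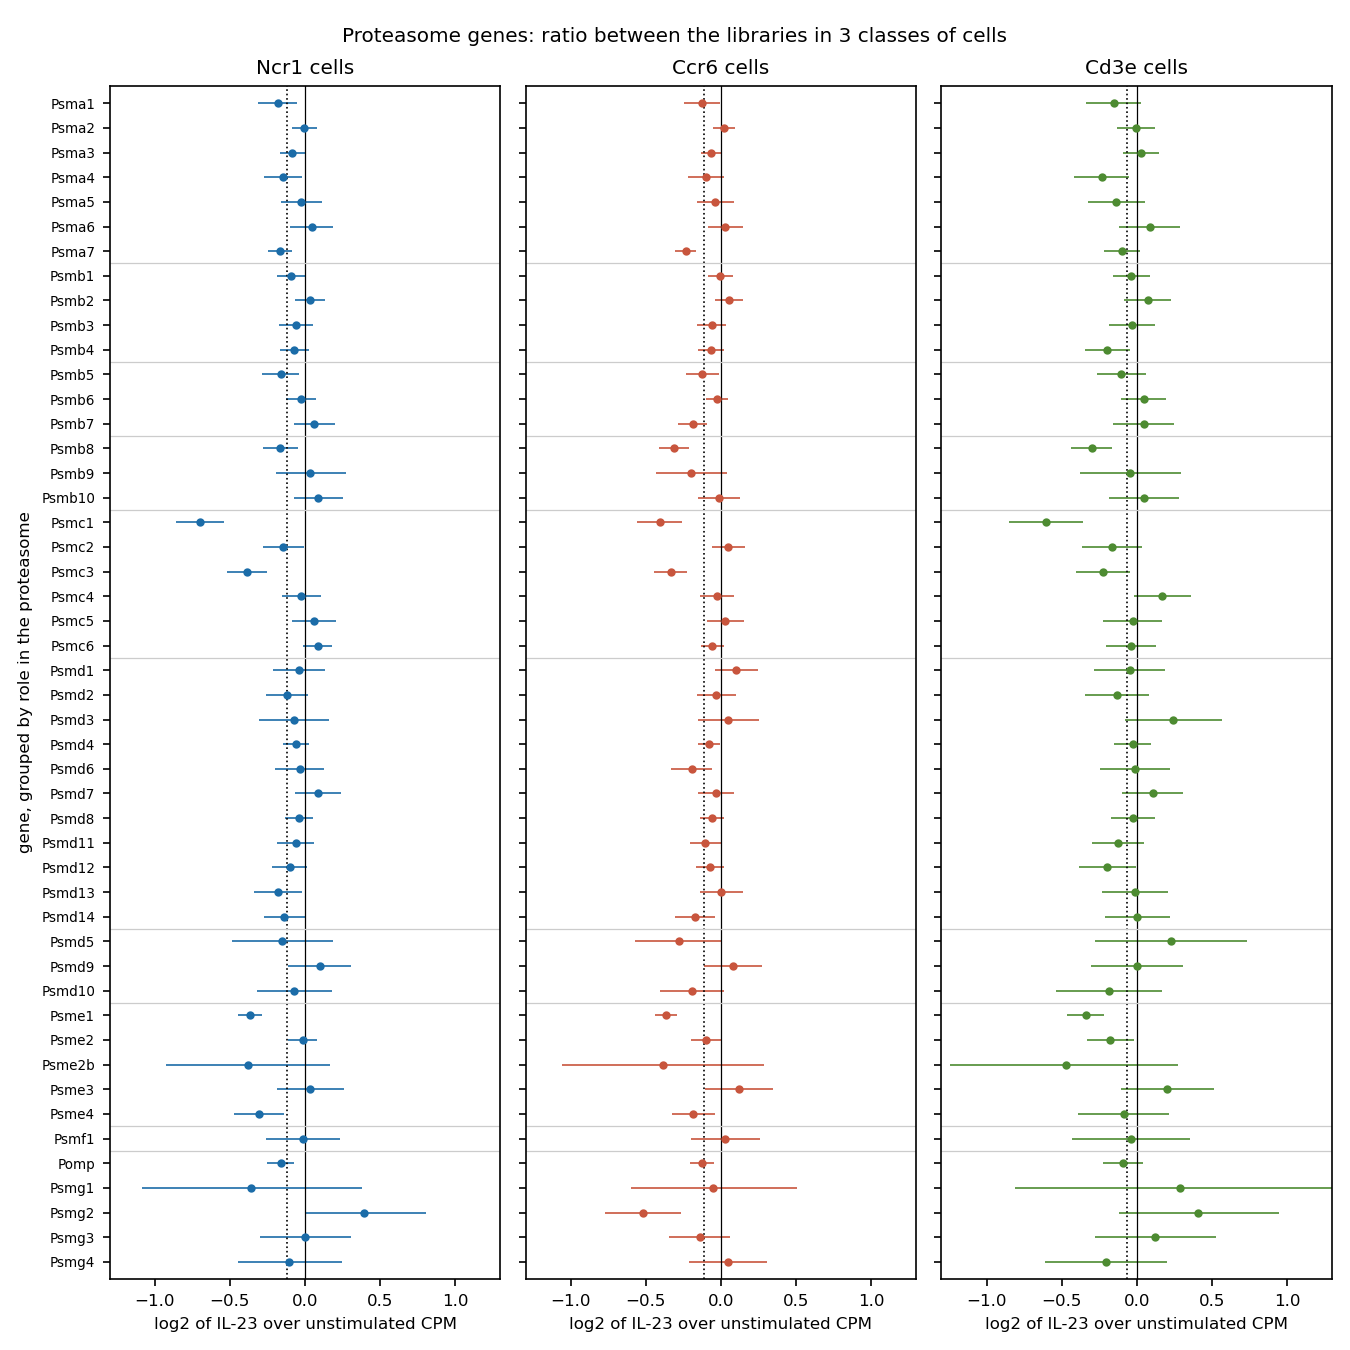
Log2 ratio of IL-23 over unstimulated CPM (x axis) for each of the 48 proteasome genes (y axis, grouped by role) in Ncr1, Ccr6 and Cd3e cells; points are ratios, bars are exact 95% counting intervals and the dotted line is the median of all measured genes (-0.12, -0.11 and -0.07). Most points lie near the dotted line, with Psmc1 farthest to the left in Ncr1 and Cd3e cells and Psmg2 on opposite sides of 0 in Ncr1 and Ccr6 cells.

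The plot of ratios by role shows which members stood apart. In Ncr1 cells 1 of 46 members was at least 1.2-fold higher in the IL-23 library (Psmg2), where 11% of all measured genes were, and 4 were at least 1.2-fold lower (Psmc1, Psmc3, Psme1, Psme4), where 29.1% were. At 1.5-fold, 0 were higher (5.18% of all genes) and only Psmc1 was lower (7.26%). In Ccr6 cells 0 of 46 members were at least 1.2-fold higher (7.57% of all genes) and 6 were lower (Psmb8, Psmc1, Psmc3, Psmd5, Psme1, Psmg2; 25.3%). At 1.5-fold, 0 were higher (2.87%) and 0 lower (4.32%). In Cd3e cells 1 of 47 members was at least 1.2-fold higher (Psmg2; 14.8% of all genes) and 4 were lower (Psmb8, Psmc1, Psme1, Psme2b; 25.3%). At 1.5-fold, 0 were higher (4.95%) and Psmc1 alone was lower (6.97%). The members' shares past 1.2-fold were thus below those of genes at large, which hold more genes with few UMIs.

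Median-of-ratios scaling changed these splits. At 1.2-fold it gave 1 higher and 2 lower in Ncr1 cells, 0 and 2 in Ccr6 cells, and 4 and 3 in Cd3e cells, with none past 1.5-fold in either direction. Psmc1 was among the lower members in each class under both scalings. Settings that leave fewer cells or UMIs gave more members past 1.2-fold in either direction. With 2 UMIs of the class marker asked for, 8, 10 and 8 members passed in Ncr1, Ccr6 and Cd3e cells, against 5, 6 and 5. Without cells that held T cell receptor transcripts 17 passed in Ncr1 cells, and with cells thinned to 2000 UMIs 18 passed in Cd3e cells. The counting interval lay wholly below 0 for 14 members in Ncr1 cells (33.9% of all measured genes), 16 in Ccr6 cells (33.6%) and 8 in Cd3e cells (18.5%), shares near those of genes at large. It lay wholly above 0 for 1 member in Ncr1 cells, Psmg2 (13.7% of all genes), for 0 in Ccr6 cells (11.1%) and for 0 in Cd3e cells (10.9%). The deeper counts of the members narrow their intervals, so like shares do not mean differences of like size. These intervals were also set against 0 and not against the median gene. Below that median lay 15 of 46 members in Ncr1 cells, 17 of 46 in Ccr6 cells and 20 of 47 in Cd3e cells.

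The 7 measured alpha subunits, which form the outer rings and the gate of the core, sat near the median gene. Their sum was 1389 and 1308 CPM in unstimulated and IL-23 Ncr1 cells (log2 -0.09), 1535 and 1449 in Ccr6 cells (-0.08), and 1519 and 1459 in Cd3e cells (-0.06). Psma6 had the highest ratio of the group in all 3 classes, at 98.2 and 101 CPM in Ncr1 cells, 125 and 127 in Ccr6 cells, and 112 and 119 in Cd3e cells, with intervals that overlapped throughout. The lowest ratio belonged to Psma1 in Ncr1 cells (122 and 107 CPM; log2 -0.18, -0.31 to -0.05), to Psma7 in Ccr6 cells (380.3 and 323 CPM; log2 -0.23, -0.30 to -0.17) and to Psma4 in Cd3e cells (148 and 126 CPM; log2 -0.23, -0.42 to -0.05). No single alpha subunit was thus lowest in every class, and none reached 1.2-fold.

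The 4 structural beta subunits (Psmb1 to Psmb4), which hold no active site, differed little between the libraries. Their sums were 824 and 795 CPM in Ncr1 cells (log2 -0.05), 846 and 834 in Ccr6 cells (-0.02) and 913 and 882 in Cd3e cells (-0.05). Psmb2 had the highest ratio in each class, at 0.03, 0.05 and 0.07. Psmb1 had the lowest in Ncr1 cells (239.7 and 225 CPM; log2 -0.09), and Psmb4 in Ccr6 cells (228 and 217 CPM; -0.07) and Cd3e cells (221 and 193 CPM; -0.19, -0.35 to -0.04).

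Among the 3 constitutive catalytic subunits, Ccr6 cells differed from both other classes by more than the libraries differed for Psmb6 and Psmb7. Psmb5, the chymotrypsin-like subunit, was at 143 CPM unstimulated and 128 with IL-23 in Ncr1 cells, 145 and 134 in Ccr6 cells, and 177 and 165 in Cd3e cells. It was a little lower in the IL-23 library in each class (log2 -0.16, -0.12 and -0.10), near the median gene (-0.12, -0.11 and -0.07). Psmb6, the caspase-like subunit, was at 200.0 and 197 CPM in Ncr1 cells, 294 and 289 in Ccr6 cells, and 200.2 and 207 in Cd3e cells. Psmb7, the trypsin-like subunit, was at 106 and 111 CPM in Ncr1 cells, 180.5 and 158 in Ccr6 cells, and 113 and 116 in Cd3e cells. Ccr6 cells stood above both other classes for Psmb6 and Psmb7 in each library, with no overlap of the intervals. Between the libraries, only Psmb7 in Ccr6 cells had intervals that did not meet (log2 -0.19, -0.29 to -0.09).

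The 3 immunoproteasome subunits did not differ alike. Psmb8, which replaces Psmb5, was at 158 CPM (149 to 168) unstimulated and 141 (134 to 149) with IL-23 in Ncr1 cells, a log2 ratio of -0.16 (-0.28 to -0.05). In Ccr6 cells it was at 187 CPM (178 to 196) and 150.4 (143 to 158), a log2 ratio of -0.31 (-0.41 to -0.21). In Cd3e cells it was at 270.2 CPM (253 to 288) and 219 (204 to 236), a log2 ratio of -0.30 (-0.44 to -0.16). Psmb8 was thus lower in the IL-23 library in each class, and also in the innate cells with neither marker (172 and 134 CPM; -0.36). Under median-of-ratios scaling its log2 ratio was -0.05 in Ncr1 cells and -0.20 in Ccr6 cells.

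Psmb9, which replaces Psmb6, was at 37.1 and 38.1 CPM in Ncr1 cells, 32.1 and 28.0 in Ccr6 cells, and 43.5 and 42.2 in Cd3e cells, with overlapping intervals in all 3. Psmb10, which replaces Psmb7, was at 74.5 and 79.1 CPM in Ncr1 cells, 86.4 and 85.5 in Ccr6 cells, and 87.3 and 90.2 in Cd3e cells, again overlapping. For these 2 genes the largest log2 difference between the libraries that the main intervals allow was -0.43, for Psmb9 in Ccr6 cells. Under the processing alternatives described below, Psmb9 went past this. Its log2 ratio ranged from -0.04 to 0.86 in Ncr1 cells, -0.42 to -0.07 in Ccr6 cells and -0.51 to 0.02 in Cd3e cells. Psmb10 ranged from 0.02 to 0.21, -0.10 to 0.10 and -0.12 to 0.11 in the same order. Psmb8 (17, 34197721 to 34201454) and Psmb9 (17, 34181987 to 34187764) lie beside each other on chromosome 17 with the peptide transporter gene Tap1 between them, while Psmb10 (8, 105935735 to 105938444) lies on chromosome 8 (GRCm38). A GENCODE transcript of Psmb9 overlaps Tap1 on the other strand, and the use of strand in the counting is not stated.

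**Figure D2:**
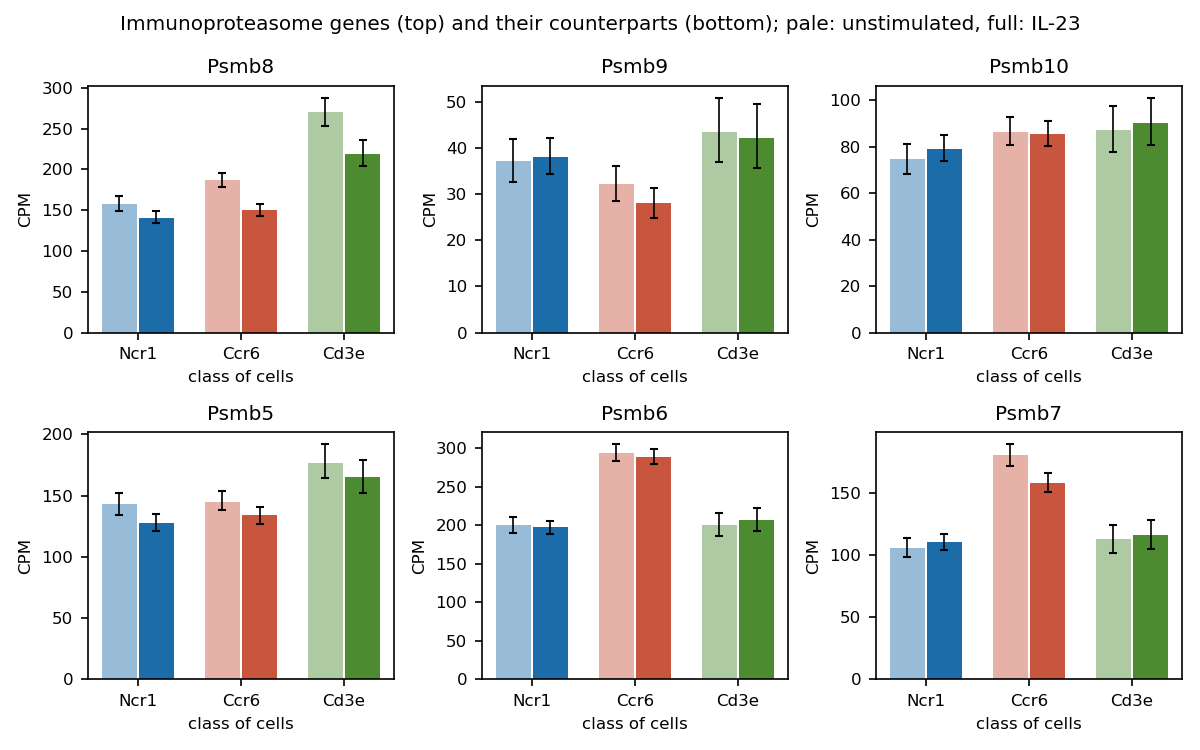
Level in CPM (y axis, from 0) of the 3 immunoproteasome genes (top) and of the constitutive subunits they replace (bottom) in Ncr1, Ccr6 and Cd3e cells (x axis); pale bars are the unstimulated and full bars the IL-23 library, and error bars are exact 95% counting intervals. Psmb8 is lower with IL-23 in each class (158 to 141, 187 to 150.4 and 270.2 to 219 CPM), while Psmb9 and Psmb10 overlap between the libraries. In Ncr1 cells the Psmb8 log2 ratio (-0.16) is near that of the median gene (-0.12).

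Summed, the 3 immunoproteasome genes gave 269.9 CPM unstimulated and 258 with IL-23 in Ncr1 cells (log2 -0.06, -0.15 to 0.02), 305 and 264 in Ccr6 cells (-0.21, -0.29 to -0.13), and 401 and 352 in Cd3e cells (-0.19, -0.30 to -0.08). Psmb8 carried most of each difference. In Ncr1 cells the direction of the sum turned under median-of-ratios scaling (0.06) and with 2 UMIs of Ncr1 asked for (0.04), and in Ccr6 cells median-of-ratios scaling gave -0.10. As a share of the UMIs of all 6 catalytic genes, the immunoproteasome genes made up 37.5% (36.2 to 38.9) and 37.3% (36.1 to 38.4) in Ncr1 cells. The share was 33.0% (32.0 to 34.0) and 31.2% (30.3 to 32.2) in Ccr6 cells, and 45.0% (43.2 to 46.7) and 41.9% (40.1 to 43.7) in Cd3e cells. The order of the classes, Cd3e above Ncr1 above Ccr6, was the same in both libraries, and these intervals did not overlap between classes within a library.

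**Figure D3:**
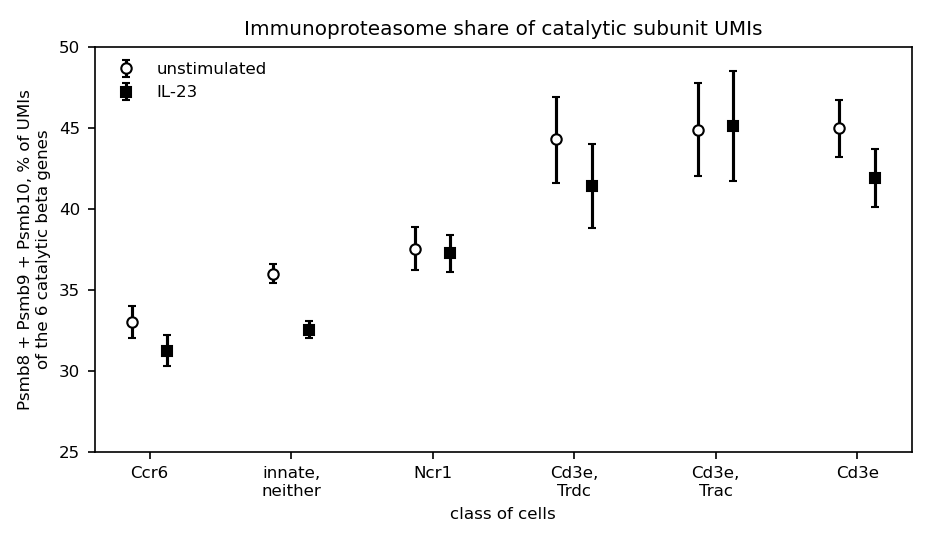
Share of catalytic beta subunit UMIs that come from Psmb8, Psmb9 and Psmb10 (y axis, from 25%) by class of cells (x axis) in the unstimulated (open circles) and IL-23 (squares) libraries; bars are exact Clopper-Pearson 95% intervals. Cd3e cells lie highest (45.0% and 41.9%) and Ccr6 cells lowest (33.0% and 31.2%), and the Trdc and Trac points are parts of the Cd3e cells.

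The plot of immunoproteasome shares also gives smaller groups, which were chosen after the data had been seen. Cd3e cells with Trdc, the gamma delta T cell receptor constant gene, went from 44.3% (41.6 to 46.9) to 41.4% (38.8 to 44.0), with overlapping intervals. Cd3e cells with Trac, the alpha beta counterpart, were at 44.9% (42.0 to 47.8) and 45.1% (41.7 to 48.5). Ccr6 cells with a UMI of the MHC class II gene H2-Aa were at 33.3% (31.8 to 34.9) and 30.0% (28.6 to 31.5), and those without at 32.8% (31.4 to 34.1) and 32.2% (30.9 to 33.5). The innate cells with neither marker, the largest group, were at 36.0% (35.4 to 36.6) and 32.5% (32.0 to 33.1).

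By pair, Psmb8 made up 52.5% of the Psmb8 and Psmb5 UMIs in Ncr1 cells of both libraries, 56.2% and 53.0% in Ccr6 cells, and 60.4% and 57.0% in Cd3e cells. Psmb9 made up 15.6% and 16.2% of its pair with Psmb6 in Ncr1 cells, 9.84% and 8.84% in Ccr6 cells, and 17.8% and 17.0% in Cd3e cells. Psmb10 made up 41.3% and 41.7% of its pair with Psmb7 in Ncr1 cells, 32.4% and 35.1% in Ccr6 cells, and 43.6% in Cd3e cells of both libraries. The lower immunoproteasome share of Ccr6 than of Ncr1 cells thus came with higher Psmb6 and Psmb7 and with Psmb8 at 187 against 158 CPM unstimulated and 150.4 against 141 CPM with IL-23. Psmb10 was at 86.4 against 74.5 CPM unstimulated and 85.5 against 79.1 CPM with IL-23. Psmb9 was lower in Ccr6 cells, at 32.1 against 37.1 CPM unstimulated, with overlapping intervals, and 28.0 against 38.1 CPM with IL-23.

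The 6 ATPases of the base, Psmc1 to Psmc6, held the member that differed most in Ncr1 and Cd3e cells (in Ccr6 cells it was Psmg2). Psmc1 was at 101 CPM (93.7 to 109) unstimulated and 62.3 (57.5 to 67.4) with IL-23 in Ncr1 cells, a log2 ratio of -0.70 (-0.86 to -0.54). In Ccr6 cells it was at 85.7 CPM (79.7 to 91.9) and 64.6 (59.9 to 69.6), a log2 ratio of -0.41 (-0.56 to -0.26). In Cd3e cells it was at 98.6 CPM (88.5 to 109) and 64.8 (56.6 to 73.8), a log2 ratio of -0.60 (-0.85 to -0.36). The innate cells with neither marker gave 87.5 and 62.3 CPM (-0.49). No interval of Psmc1 overlapped between the libraries in these 4 groups, and its IL-23 levels lay within 62.3 to 64.8 CPM. Psmc1 (chromosome 12, 100110154 to 100123405, plus strand) overlaps no other annotated gene on its strand.

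Psmc3, another ATPase of the ring, was next, at 126 and 96.3 CPM in Ncr1 cells (log2 -0.39, -0.52 to -0.25), 154 and 123 in Ccr6 cells (-0.33, -0.44 to -0.22), and 157 and 134 in Cd3e cells (-0.22, -0.40 to -0.04). The other 4 ATPases differed little. The highest ratio was that of Psmc6 in Ncr1 cells (219 and 232 CPM; 0.08), Psmc2 in Ccr6 cells (137 and 142 CPM; 0.05) and Psmc4 in Cd3e cells (124 and 139 CPM; 0.17, -0.02 to 0.36). Summed, the 6 ATPases had log2 ratios of -0.13, -0.10 and -0.12 in the 3 classes.

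The 11 further subunits of the cap (Psmd1 to Psmd4, Psmd6 to Psmd8 and Psmd11 to Psmd14) summed to 1376 and 1314 CPM in Ncr1 cells (log2 -0.07), 1524 and 1456 in Ccr6 cells (-0.07), and 1448 and 1410.3 in Cd3e cells (-0.04). None reached 1.2-fold in CPM in any class. The lowest ratio belonged to Psmd13 in Ncr1 cells (85.2 and 75.3 CPM; -0.18), to Psmd6 in Ccr6 cells (94.6 and 82.7 CPM; -0.19) and to Psmd12 in Cd3e cells (139.5 and 122 CPM; -0.19), all scaffold subunits of the lid. The highest belonged to Psmd7 in Ncr1 cells (84.4 and 89.7 CPM; 0.09), the partner of the deubiquitinase Psmd14, to the large base scaffold Psmd1 in Ccr6 cells (77.2 and 82.9 CPM; 0.10) and to the lid scaffold Psmd3 in Cd3e cells (42.6 and 50.5 CPM; 0.24, -0.08 to 0.57). Psmd14 itself, which cuts ubiquitin off the substrate, was at 108 and 97.8 CPM in Ncr1 cells, 98.7 and 87.6 in Ccr6 cells, and 101 in Cd3e cells of both libraries.

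Of the 3 chaperones that help build the base, Psmd5 was at 19.1 and 17.2 CPM in Ncr1 cells, 22.5 and 18.5 in Ccr6 cells (log2 -0.28, -0.57 to 0.01), and 17.8 and 20.8 in Cd3e cells. Psmd9 was at 44.8 and 47.9, 43.5 and 46.0, and 51.1 CPM in both libraries, in the same order of classes. Psmd10 was at 33.8 and 32.1, 40.4 and 35.3, and 41.5 and 36.5 CPM. All their intervals overlapped between the libraries.

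The activators bind the ends of the core in place of the cap. Psme1, which forms the interferon-responsive activator PA28 together with Psme2, was at 355 CPM (341 to 369.6) unstimulated and 276 (266 to 286) with IL-23 in Ncr1 cells, a log2 ratio of -0.36 (-0.44 to -0.29). It was at 336 and 261 CPM in Ccr6 cells (-0.36, -0.44 to -0.29), at 345 and 272 in Cd3e cells (-0.34, -0.46 to -0.22), and at 346 and 274 in the innate cells with neither marker (-0.34). The unstimulated levels of these 4 groups lay within 336 to 355 CPM and the IL-23 levels within 261 to 276 CPM, with no overlap between the libraries. Under median-of-ratios scaling the ratios in Ncr1 and Ccr6 cells were -0.25 and -0.25.

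Psme2, its partner in the same ring, differed less, at 206 and 204 CPM in Ncr1 cells (log2 -0.02, -0.12 to 0.08), 177 and 165 in Ccr6 cells (-0.10), and 203 and 180.1 in Cd3e cells (-0.18, -0.33 to -0.02). The intervals of the Psme1 and Psme2 ratios did not overlap in Ncr1 and Ccr6 cells and overlapped in Cd3e cells. Both genes lie on chromosome 14, Psme1 at 55578123 to 55581529 on the plus strand and Psme2 at 55587441 to 55591113 on the minus strand. Psme2b, a near-copy of Psme2 within other annotated transcripts on chromosome 11, was at 8.15 and 6.26, 4.58 and 3.51, and 10.7 and 7.71 CPM, and is uncertain because reads can be split between the copies.

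Psme3, a nuclear activator related to these, was at 41.2 and 42.2 CPM in Ncr1 cells, 31.6 and 34.4 in Ccr6 cells, and 46.6 and 53.7 in Cd3e cells, with overlapping intervals. Psme4, a large activator that binds the core as a single chain, was at 80.0 and 64.7 CPM in Ncr1 cells (log2 -0.31, -0.47 to -0.14), 88.1 and 77.7 in Ccr6 cells (-0.18, -0.32 to -0.04), and 53.9 and 50.8 in Cd3e cells (-0.09, -0.39 to 0.22). Its level was lower with IL-23 in each class, and the intervals of the levels did not overlap in Ncr1 cells alone. In Cd3e cells the direction turned with cells thinned to 2000 UMIs (0.33, -0.27 to 0.93) and with 2 UMIs of Cd3e asked for (0.09). Psmf1, an inhibitor of the core in the test tube, was at 33.9 and 33.6, 32.4 and 33.1, and 32.2 and 31.4 CPM.

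Among the chaperones that assemble the core was the one member whose counting interval lay above 0 in 1 class and below 0 in another. Psmg2, which pairs with Psmg1 to build the alpha ring, was at 11.8 CPM (9.36 to 14.6) unstimulated and 15.5 (13.2 to 18.2) with IL-23 in Ncr1 cells, a log2 ratio of 0.40 (0.00 to 0.81). In Ccr6 cells it was at 31.5 CPM (28.0 to 35.4) and 22.0 (19.3 to 25), a log2 ratio of -0.52 (-0.77 to -0.27). In Cd3e cells it was at 15.2 CPM (11.5 to 19.9) and 20.3 (15.8 to 25.6), a log2 ratio of 0.41 (-0.12 to 0.95). The innate cells with neither marker gave 22.0 and 17.7 CPM (-0.31). In the Ncr1 cells these levels rest on 81 and 154 UMIs, and with at least 2 UMIs of Ncr1 asked for, the ratio there was -0.14 (-0.84 to 0.60). In Cd3e cells thinned to 2000 UMIs it was -0.83 (-2.30 to 0.41).

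Pomp, the maturation factor of the core, was at 258 and 231 CPM in Ncr1 cells (log2 -0.16), 253 and 232 in Ccr6 cells (-0.13), and 270.0 and 253 in Cd3e cells (-0.09). Psmg3 was at 23 CPM in Ncr1 cells of both libraries, 42.5 and 38.6 in Ccr6 cells, and 28.5 and 31.1 in Cd3e cells. Psmg4, its partner, was at 17.9 and 16.7, 24.8 and 25.6, and 31.9 and 27.7 CPM. Psmg1, under the minimum in each class, was at 4.66 and 3.63, 5.93 and 5.73, and 3.95 and 4.85 CPM. Apart from Pomp in Ncr1 and Ccr6 cells, the intervals of these 4 genes overlapped between the libraries.

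**Figure D4:**
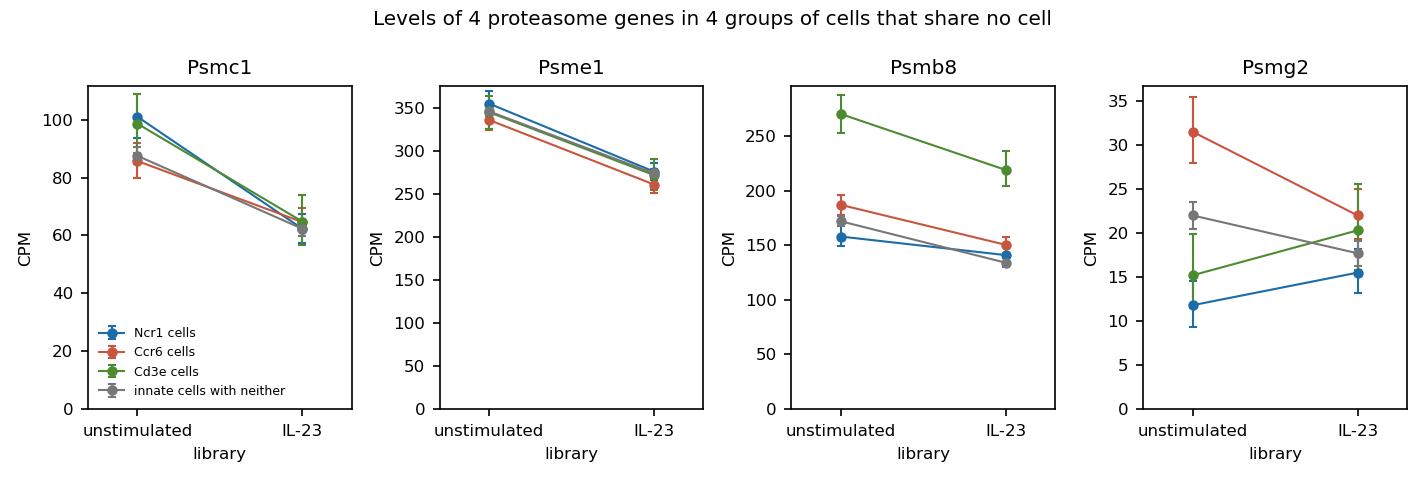
Level in CPM (y axes, from 0) of Psmc1, Psme1, Psmb8 and Psmg2 in the unstimulated and IL-23 libraries (x axis) for 4 groups of cells that share no cell; points are levels, bars exact 95% counting intervals, and lines join the 1 library of each kind. Psmc1 and Psme1 are lower with IL-23 in all 4 groups (Psme1 from 336 to 355 down to 261 to 276 CPM), whereas Psmg2 is higher with IL-23 in Ncr1 and Cd3e cells and lower in the other groups.

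The plot of 4 members in 4 groups of cells shows that Psmc1, Psme1 and Psmb8 were lower in the IL-23 library in each of the 4 groups. For Psmb8 in Ncr1 cells the interval of the log2 ratio (-0.28 to -0.05) held the median gene (-0.12). Within the Cd3e cells, those with Trac had Psmb8 at 268 and 262 CPM (log2 -0.03, -0.27 to 0.21). The groups share no cell but come from the same 2 libraries, so they are no replicates of the difference. Cells with a UMI of the cycling genes Mki67 or Top2a made up 6.08% and 7.15% of Ncr1 cells, 4.04% and 3.83% of Ccr6 cells, and 12.9% and 10.5% of Cd3e cells. The count of members past 1.2-fold stayed within 1.5 times the values above when these cells were left out.

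Between classes of cells within a library, members were again close. A difference was counted when it reached 1.5-fold in the same direction in both libraries. Ccr6 cells exceeded Ncr1 cells in 1 of 46 members, Psmg3 (9.26% of all genes), and fell short in 0 (7.04%). Cd3e cells exceeded Ncr1 cells in 2 of 46, Psmb8 and Psmg4 (14.4%), and fell short in 0 (8.3%). Cd3e cells exceeded Ccr6 cells in 0 of 46 (15.9%) and fell short in 2, Psmc6 and Psme4 (12.7%). The members' shares lay below those of genes at large in all 6 counts. The median log2 ratio of members for Ccr6 over Ncr1 cells was 0.13 unstimulated and 0.12 with IL-23, against 0.08 and 0.08 for all measured genes.

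Psmb8 in Cd3e over Ncr1 cells had log2 ratios of 0.77 (0.65 to 0.90) unstimulated and 0.64 (0.51 to 0.76) with IL-23. The 3 immunoproteasome genes summed had ratios of 0.57 and 0.45 for Cd3e over Ncr1 cells, and of 0.39 and 0.42 for Cd3e over Ccr6 cells. The 3 constitutive catalytic genes summed had ratios of 0.47 and 0.42 for Ccr6 over Ncr1 cells, made up of Psmb7 (0.77 and 0.52) and Psmb6 (0.56 and 0.56), while Psmb5 was at 0.02 and 0.06. Psmc6, an ATPase, had ratios of -0.80 and -0.78 for Cd3e over Ccr6 cells, and Psme4 of -0.71 and -0.61. Psmb7 and Psmg3 overlap other annotated genes on the same strand, so part of their UMIs could belong to those.

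**Figure D5:**
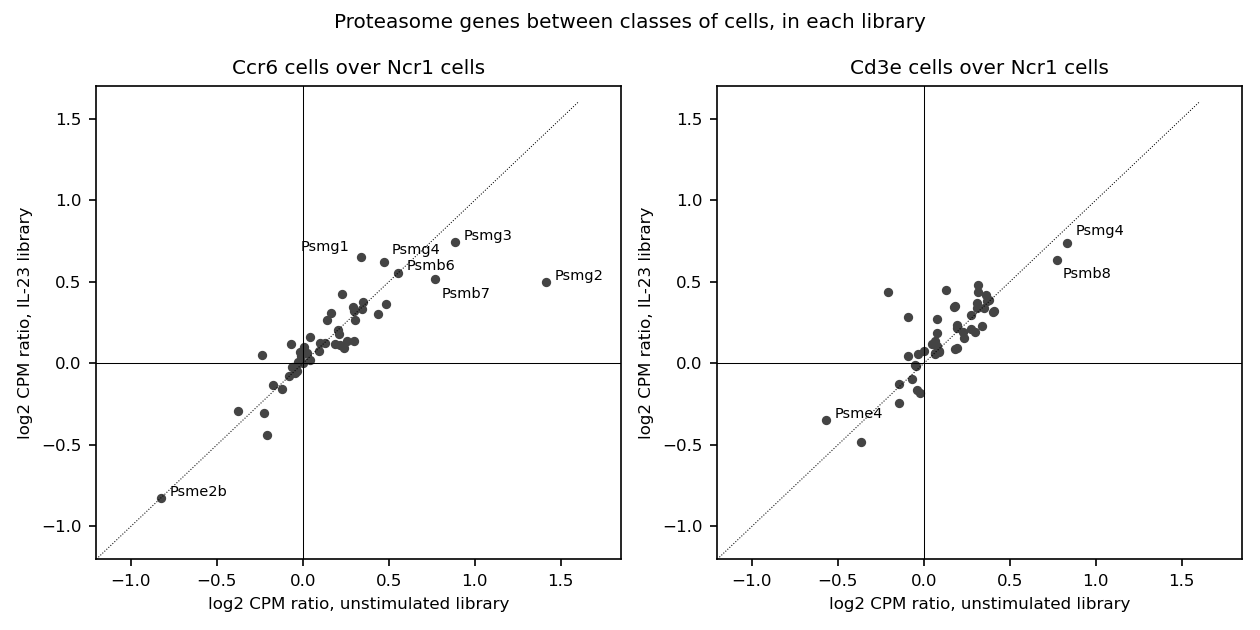
Log2 CPM ratio between classes of cells in the unstimulated library (x axis) and in the IL-23 library (y axis) for the 48 proteasome genes, Ccr6 over Ncr1 cells on the left and Cd3e over Ncr1 cells on the right; the dotted line marks equal ratios, and genes beyond 0.5 in 1 or both libraries are named. Most points follow the dotted line, and Psmg2 is off it on the left (1.41 and 0.50).

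The plot of class ratios shows that the differences between classes were of like size in both libraries for most members. For Ccr6 over Ncr1 cells, the intervals of the 2 libraries did not overlap for Psmb7 and Psmg2. Psmb7 had log2 ratios of 0.77 (0.64 to 0.90) and 0.52 (0.41 to 0.63), and Psmg2 had log2 ratios of 1.41 (1.06 to 1.80) unstimulated and 0.50 (0.20 to 0.80) with IL-23.

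Genes that act with the proteasome were taken from lists that are described by counts, since they were chosen with earlier results known. Among 10 regulators of proteasome genes, Nfe2l1, the transcription factor that raises subunit genes when proteasome activity is short, was at 148 CPM unstimulated and 74.3 with IL-23 in Ncr1 cells (log2 -0.99, -1.13 to -0.86). It was at 174 and 92.9 CPM in Ccr6 cells (-0.91) and 108 and 61.9 in Cd3e cells (-0.80). Nfe2l1 was the only listed regulator at least 1.5-fold lower, in each class. Higher by as much were Stat3, which carries the IL-23 signal, and Maff in Ccr6 cells (458 and 736 CPM, and 122 and 183 CPM), and Mafk in Cd3e cells (18.4 and 30.8 CPM). The members with the antioxidant response element core in their windows were Psmb5, Psmb6, Psmc6, Psmd12, Psmd9 and Psme4. In that order their log2 ratios were -0.16, -0.03, 0.08, -0.10, 0.10 and -0.31 in Ncr1 cells (median gene -0.12). They were -0.12, -0.02, -0.06, -0.07, 0.08 and -0.18 in Ccr6 cells (median gene -0.11). In Cd3e cells they were -0.10, 0.05, -0.04, -0.19, -0.0008 and -0.09 (median gene -0.07). A link between Nfe2l1 and these members was not tested.

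Among 6 other genes of the particle, 0 passed 1.5-fold in any class. Adrm1, a ubiquitin receptor of the cap, was at 59.1 and 68.9 CPM in Ncr1 cells, 74.1 and 94.8 in Ccr6 cells, and 52.2 and 65.6 in Cd3e cells (log2 0.22, 0.35 and 0.33). Usp14, a deubiquitinase of the cap, was at 54.1 and 43.2 CPM in Ncr1 cells, 64.5 and 54.3 in Ccr6 cells, and 52.8 and 41.4 in Cd3e cells, lower with IL-23 in each. Ecpas, a scaffold that binds the proteasome, was at 43.9 and 42.1, 43.5 and 32.4, and 42.1 and 31.1 CPM, with log2 ratios of -0.06, -0.43 and -0.43. The polyubiquitin gene Ubb was at 1327 and 1606, 1188 and 1568, and 1914 and 2568 CPM in the 3 classes (log2 0.28, 0.40 and 0.42).

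Among 13 genes of MHC class I processing 0 passed 1.5-fold in any class. Tap1, the neighbour of Psmb9 that pumps peptides into the endoplasmic reticulum, was at 55.0 and 57.1 CPM in Ncr1 cells, 40.1 and 35.3 in Ccr6 cells, and 64.9 and 77.1 in Cd3e cells, with overlapping intervals. B2m, the light chain of MHC class I, had log2 ratios of -0.07, -0.09 and -0.10. Among 11 interferon signalling genes, Stat2 (32.2 and 63.2 CPM), Irf8 (130.5 and 232 CPM) and the interferon gamma gene Ifng (7.27 and 48.9 CPM) were at least 1.5-fold higher in IL-23 Ncr1 cells, and the receptor gene Ifnar1 (35.2 and 23 CPM) was lower. In Cd3e cells Stat2 (21.2 and 33.7 CPM) and Irf8 (22.6 and 61.9 CPM) were higher and Ifnar1 (46.6 and 26.5 CPM) lower by that size. In Ccr6 cells 0 of 10 measured genes passed 1.5-fold. Ifng stayed under 10 CPM in Ccr6 and Cd3e cells and was not counted there, but it was also higher in the IL-23 library. It had 2 and 36 UMIs in Ccr6 cells (0.224 and 3.33 CPM, log2 3.59). In Cd3e cells it had 18 and 34 UMIs (5.08 and 9.7 CPM, log2 0.91). Both counting intervals lay above 0. In Ncr1 cells, the interferon-responsive members Psmb9, Psmb10 and Psme2 had log2 ratios of 0.04, 0.09 and -0.02, and Psmb8 and Psme1 ratios of -0.16 and -0.36. Over the processing alternatives these ranged from -0.04 to 0.86 (Psmb9), 0.02 to 0.21 (Psmb10) and -0.12 to 0.26 (Psme2). For Psmb8 the range was -0.29 to -0.05, and for Psme1 -0.39 to -0.25. A link between the interferon signalling genes and these members was not tested.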

How the data were processed

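Single-cell RNA was measured in 2 libraries, 1 unstimulated and 1 given IL-23 for 2 hours, both from sorted eGFP-positive small-intestinal leukocytes. Both samples carry the same protocol text, which names IL-23, so each library's group rests on its treatment label. The deposited values are whole-number UMI counts per gene and barcode, with no normalization by the authors. The build was mm10 and the tool Cell Ranger 3.1.0, per the submitters' processing notes. The version is cellranger 6.0.0 per the file headers.

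Barcodes were kept from 500 genes upward and with mitochondrial UMIs at 10% or less. No doublet caller was run: cells with both Ncr1 and Ccr6 were kept apart, and leaving out the 2% of cells with the most UMIs was an alternative. For CPM, a gene's UMIs in each class of a library were added up and scaled by the class total. Log2 ratios set IL-23 over unstimulated CPM after 0.5 UMI was added to both sums, with exact conditional binomial intervals. Levels carry exact Poisson and shares Clopper-Pearson 95% intervals (Python 3.11.15, numpy 2.4.6, pandas 2.3.3, scipy 1.17.1). Between 1052 and 1535 cells per library stand behind the innate classes and 430 and 495 behind the Cd3e cells. With 1 library per group no p-value was computed, and 1.2-fold and 1.5-fold are sizes, not tests. The ratio step was tested on simulated counts with known changes, drawn with Poisson error only. That is the error the intervals assume, so variation between cells or libraries was not covered.

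The members, lists and tests were chosen with earlier results of these data known. Named with values are the catalytic subunits, activators, Psmf1, assembly chaperones, the highest and lowest ratio of each other group, members past 1.5-fold, and of the lists, genes past 1.5-fold and Nfe2l1, B2m, Tap1 and Ubb. Some genes that this rule names are not reported here. Psmc3, Psme4, Psmd14, the Psmd chaperones, Adrm1, Usp14, Ecpas and the groups by Trdc, Trac and H2-Aa were added after their values were seen. Alternatives changed the cell filter, scaling, genes in the total, count minimum, marker threshold, exclusion of T cell receptor transcripts, weight of cells, depth, very deep cells and cycling cells. Gene positions came from GENCODE vM21 (GRCm38), in which all 49 members matched by gene identifier, and promoters from RefSeq (GRCm38.p6).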

Additional observations from a re-analysis of the deposited data

Results flagged for a closer look

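Psmg2, an assembly chaperone of the core, was the only proteasome gene singled out by a difference between classes: its counting interval lay above 0 in Ncr1 cells (log2 0.40) and below 0 in Ccr6 cells (-0.52). The difference between these log2 ratios was 0.91, and it was not tested, since each class has 1 library per condition. Psmg2 in Ncr1 cells rested on 81 and 154 UMIs, and the direction there did not hold when at least 2 UMIs of Ncr1 were asked for (-0.14).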

How the results depend on the processing

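Each of the 9 summed ratios and counts was computed under 10 or 11 alternatives, 93 values in all: 74 stayed on the same side and within the counting error (or within 1.5 times of a count), 17 moved by more and 2 reversed. Reversed means a change of sign in a value that was at least 1.2-fold or, for a sum, whose interval excluded 0. The 1 alternative chosen after seeing the data left out cells with at least 20 B and plasma cell UMIs and moved none of the 9. Under median-of-ratios scaling the sum of all members reversed to 0.0257 in Ncr1 cells (from -0.09) and to 0.0172 in Ccr6 cells (from -0.10) and was -0.0108 in Cd3e cells (from -0.08). This scaling sets the median gene to 0. It also gave 0.0555 in Ncr1 cells (from -0.06) and -0.0972 in Ccr6 cells (from -0.21) for the immunoproteasome sum, and 3 members past 1.2-fold in Ncr1 cells (from 5) and 2 in Ccr6 cells (from 6). Without Il22 and mitochondrial genes in the total, the sum was -0.0456 in Ncr1 and -0.0588 in Ccr6 cells. With at least 2 UMIs of the class marker, the sum was -0.0694 in Ncr1 and -0.134 in Ccr6 cells, the immunoproteasome sum in Ncr1 cells was 0.0359, and 8, 10 and 8 members passed 1.2-fold in Ncr1, Ccr6 and Cd3e cells (from 5, 6 and 5). With innate cells also free of Cd247 and T cell receptor constant UMIs, the sum was -0.0694 in Ncr1 and -0.0691 in Ccr6 cells, and 17 members passed 1.2-fold in Ncr1 cells. With cells thinned to 2000 UMIs, 18 members passed 1.2-fold in Cd3e cells. These last settings leave fewer cells or UMIs, and intervals widen with them. Of 600 values for single genes, 554 lay within the counting interval of the reported ratio, 41 lay outside it and 5 reversed. Among the 554 and 41 together, 42 changed sign, all where the reported ratio was under 1.2-fold. Reversed were Psmg2 in Ncr1 cells (-0.14, with 2 UMIs of Ncr1) and in Cd3e cells (-0.83, thinned). Psme2b reversed in Ncr1 cells (0.48, without T cell receptor UMIs), in Ccr6 cells (0.28, thinned) and in Cd3e cells (0.33, thinned). No paired analysis was possible because each group is 1 library. The depth limits Psmg1, Psmg2, Psme2b and Psmd5 most.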
